A study of Mus musculus with 9 samples.

Results

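The respiratory chain and ATP synthase of mitochondria were followed in mouse liver through the nuclear genes for their subunits. Genes were taken by name, as every array probe whose gene name begins with Ndufa, Ndufb, Ndufc, Ndufs or Ndufv (complex I), Sdha to Sdhd (complex II), Uqcr (complex III), Cox4 to Cox8 (complex IV) or Atp5 (complex V), with the Ndufaf assembly factors left out. This gave 112 of 41174 probes and 81 genes, of which 36 belong to complex I, 4 to complex II, 7 to complex III, 18 to complex IV and 16 to complex V. The name rule also takes 3 genes whose products are no subunits: Cox4nb, now Emc8, a part of an endoplasmic reticulum membrane complex, Atp5s, now Dmac2l, and Cox7a2l, which joins complexes into supercomplexes. Ndufa4 is listed with complex I by its name, while its product is now counted with complex IV.

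The study compared livers of male C57BL/6 mice aged 3 months in 3 groups of 3 arrays. One group was untreated, one received AAV-GFP, an adeno-associated virus with green fluorescent protein, and one received AAV-hGRB, the same kind of vector carrying hGRβ, a human isoform of the receptor for glucocorticoid hormones. The series title gives as its aim the function of this isoform in mouse liver. The promoter, dose and time of the vectors were not given in the sources used here, and the labels do not say that replicates are separate animals, so p-values measure the spread between these samples. Every level below is a log2 array signal after subtraction of that array's own 75th percentile. Values of a group are given in the order of the labels, replicates 2, 3 and 4 for untreated and 1, 2 and 3 for each vector. Differences are in the same log2 units, and a difference of 1 is a doubling. A gene "passed" where its limma p, adjusted by Benjamini-Hochberg over 16796 genes, was below 0.05.

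Oxidative phosphorylation takes electrons from NADH at complex I and from succinate at complex II, passes them through complex III and cytochrome c to complex IV, and uses the proton gradient to make ATP at complex V. Each complex has a catalytic core and accessory subunits that stabilise or regulate it. The catalytic core of complex IV, part of that of complexes I and III, and part of complex V are encoded by mitochondrial DNA and were not analysed here. Liver draws on its ATP for gluconeogenesis and urea synthesis, and oxidises fatty acids through it. Complex IV also has paired isoforms, with Cox6a1, Cox7a2 and Cox8a in most tissues and Cox6a2, Cox7a1 and Cox8b mainly in heart and skeletal muscle.

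The factors known to drive these genes together include NRF1, GABPA, YY1 and the oestrogen-related receptors (ERR), so the promoters of the genes were read for their motifs. RefSeq promoter windows of build GRCm38.p6, from 250 bases before to 50 bases after the start, were matched for 66 of the 81 genes. The NRF1 motif, GCGCA and GCGC with 1 base of any kind between them, stood in 24.2% of them (16 of 66) and in 4.78% of the windows of all 27025 genes. The ETS motif CCGGAAG of GABPA stood in 22.7% against 9.12%, the YY1 motif AAGATGGC in 13.6% against 2.88%, and the ERR motif TCAAGGTCA in 3.03% against 0.407%. Both strands were searched, no motif lies within another, and 35 of the 66 windows held at least 1 of the 4 (53%, beside 15.6% of all). The YY1 motif was found in 7 of 32 windows of complex I and in none of the 12 of complex IV, and the NRF1 motif in 7 and 1 of them. A match is a description of the letters and shows no binding. The 250 bases before the start are shown for Sdhd, a membrane anchor of complex II, for Cox6a1, a general isoform of complex IV, and for its muscle isoforms Cox7a1 and Cox8b, with the NRF1 and ETS motifs in capitals:
Sdhd, chr9:50603850-50604099, minus strand: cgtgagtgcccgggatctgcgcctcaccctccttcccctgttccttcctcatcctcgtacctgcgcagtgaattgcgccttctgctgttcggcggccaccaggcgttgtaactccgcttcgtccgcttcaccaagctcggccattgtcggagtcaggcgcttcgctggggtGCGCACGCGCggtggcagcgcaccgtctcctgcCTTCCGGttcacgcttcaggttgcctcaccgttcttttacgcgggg
Cox6a1, chr5:115348959-115349208, minus strand: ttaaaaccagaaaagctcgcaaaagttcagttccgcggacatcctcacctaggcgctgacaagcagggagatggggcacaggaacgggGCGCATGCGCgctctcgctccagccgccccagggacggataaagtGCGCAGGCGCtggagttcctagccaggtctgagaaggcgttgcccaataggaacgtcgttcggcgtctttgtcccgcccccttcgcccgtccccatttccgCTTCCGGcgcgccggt
Cox7a1, chr7:30183921-30184170, plus strand: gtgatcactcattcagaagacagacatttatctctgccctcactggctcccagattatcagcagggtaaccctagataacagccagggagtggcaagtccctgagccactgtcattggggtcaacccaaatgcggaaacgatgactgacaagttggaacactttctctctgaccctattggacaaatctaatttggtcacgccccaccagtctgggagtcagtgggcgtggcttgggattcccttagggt
Cox8b, chr7:140900447-140900696, minus strand: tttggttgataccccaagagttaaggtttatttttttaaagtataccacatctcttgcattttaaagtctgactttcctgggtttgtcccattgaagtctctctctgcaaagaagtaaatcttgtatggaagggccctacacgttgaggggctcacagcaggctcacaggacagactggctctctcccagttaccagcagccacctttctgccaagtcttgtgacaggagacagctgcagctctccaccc
The stretch of Sdhd held 2 matches, that of Cox6a1 held 3, and those of the muscle isoforms Cox7a1 and Cox8b held none of the 4 motifs. The full window of Sdhd also held the ERR motif, which does not lie within the stretch shown.

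The arrays differ in ways that bear on these genes. They came from 5 slides, with scans on 2 days. Day 1 holds untreated replicates 3 and 4, AAV-GFP replicates 1 and 2 and AAV-hGRB replicates 2 and 3, and day 2 holds 1 array of each group. The share of spots for genes that were called well above background ran from 54.0% to 82.0%, the latter on AAV-hGRB replicate 1, a day 2 array. Over 16796 genes, untreated replicate 2 (day 2) correlated at 0.989 with AAV-GFP replicate 3 (day 2) and at 0.973 and 0.975 with the other untreated arrays. AAV-GFP replicate 1 also stood apart, with 23 genes more than 2 log2 units above every other array, against 1 to 5 on each of the others. Defining hepatocyte markers were high on every array, with albumin (Alb) between 9.81 and 10.94.

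Of the 81 genes, 79 were measured well enough to test. Cox4i2 and Cox8c were well above background on 2 arrays each and were not tested, and no spot of the 112 probes was saturated. Each of the 79 genes is represented by its probe with the highest mean. Of the 21 genes with several usable probes, the probes differed in sign in 5 for AAV-hGRB minus AAV-GFP, which were Dmac2l, Emc8, Ndufa3, Ndufa7 and Ndufa12. For AAV-hGRB minus untreated they differed in 5 (Atp5a1, Atp5b, Dmac2l, Emc8 and Ndufab1). For AAV-GFP minus untreated they differed in 4 (Atp5b, Dmac2l, Emc8 and Uqcrc1).

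No subunit gene passed between AAV-hGRB and AAV-GFP livers. The background in this comparison was 0.917% of all genes (154 of 16796). Before adjustment, 4 of the 79 genes had a limma p below 0.05 (11.7% of all genes did), 1 of them above AAV-GFP (8.41% of all genes), which was Cox6b2, and 3 below it (3.29%), Cox7a1 and Ndufs1 among them. The median difference of the 79 genes was -0.10, beside 0.03 for all genes, and 65 of 79 lay below 0 (46.4% of all genes did). This shift was 0.65, beside -0.05 for all genes, with 75 of 79 above 0, under a different background correction (normexp). It was -0.09, beside 0.01 for all genes, with normexp after bright local backgrounds were replaced. Where normexp is named below in these results, it is the form without that replacement. The median of the 79 genes was -0.01 with quantile normalization, beside -0.02 for all genes. It was -0.47 with array median scaling, where the median of all genes was -0.33, and -0.30 with slide as a random block. It was -0.27 without AAV-GFP replicate 1, -0.24 without AAV-hGRB replicate 2, 0.04 without AAV-GFP replicate 3 and -0.00068 without AAV-hGRB replicate 1. By complex, the medians were -0.08 for complex I, -0.23 for complex II, -0.19 for complex III, -0.13 for complex IV and -0.14 for complex V, all 5 above 0 with normexp. Quantile normalization turned complexes I and IV to 0.03 and 0.0027. Without AAV-GFP replicate 3 the medians of complexes I, IV and V were also above 0. The groups did not overlap, AAV-hGRB being lower, for 9 of the 79 genes (11.4%, beside 6.3% of all genes), and AAV-hGRB was higher for 1 (1.27%, beside 9.42%). Among the 9 were Ndufs1, Ndufv1, Uqcrc1, Cox7a1, Cox8b, Atp5d, Atp5g1 and Atp5g2, of which normexp turned all but Cox7a1 and Cox8b above 0. The 1 was Cox6b2, which normexp turned to -0.06. For each gene named here that turned sign, normexp was the only 1 of 23 alternatives to turn it.

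Complex I oxidises NADH and passes its electrons to ubiquinone. Ndufs1, the large iron-sulphur subunit that carries electrons away from the NADH site, measured 5.11, 5.25 and 5.26 untreated, 5.11, 5.26 and 5.06 with AAV-GFP, and 4.74, 4.85 and 4.74 with AAV-hGRB. The AAV-hGRB arrays were the 3 lowest of the 9. The difference was -0.37 ± 0.15 (SE, limma adjusted p = 0.357) from AAV-GFP and -0.43 ± 0.15 (adjusted p = 0.123) from untreated, with -0.40 and -0.32 from AAV-GFP on the separate days, and 0.41 from AAV-GFP with normexp. The probe is at chr1:63384448-63384507 in build mm7, the build of the files. Ndufv1, the subunit that binds NADH, measured 6.33, 6.49 and 6.46 with AAV-GFP and 6.23, 6.29 and 5.95 with AAV-hGRB, and its untreated arrays (6.24 to 6.34) overlapped the AAV-hGRB ones. The core subunits Ndufs3, Ndufs7, Ndufs8 and Ndufv2 had overlapping groups. All 7 core subunits lay below 0 against AAV-GFP (median -0.14), and all 7 above 0 with normexp (median 0.58).

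Complex II, which is succinate dehydrogenase, is both an enzyme of the citric acid cycle and an entry to the chain. Sdha, its flavoprotein, measured 3.83, 4.24 and 4.23 untreated, 4.21, 3.94 and 3.73 with AAV-GFP, and 3.66, 3.82 and 3.51 with AAV-hGRB. Sdhb, its iron-sulphur subunit, measured 5.69, 5.60 and 5.58 untreated, 5.89, 5.84 and 5.38 with AAV-GFP, and 5.19, 5.49 and 5.55 with AAV-hGRB. The AAV-hGRB arrays of both genes lay below all untreated arrays and overlapped AAV-GFP. The limma differences from AAV-GFP were -0.30 ± 0.20 for Sdha (SE, adjusted p = 0.641) and -0.29 ± 0.19 for Sdhb (adjusted p = 0.63). With normexp they were 0.36 and 0.44, and for both genes this was the only 1 of 23 alternatives to turn the sign. Of the membrane anchors, Sdhc gave -0.17 ± 0.19 and Sdhd 0.04 ± 0.28 (SE). Sdhd measured 7.16, 6.41 and 6.32 untreated, 6.79, 7.25 and 7.43 with AAV-GFP, and 6.87, 7.49 and 7.22 with AAV-hGRB. Its 2 lowest arrays were the untreated ones of day 1.

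Complex III passes electrons from ubiquinol to cytochrome c. Uqcrc1, a core protein of its matrix side, measured 6.28, 6.08 and 6.32 untreated, 6.21, 6.43 and 6.13 with AAV-GFP, and 5.98, 6.00 and 5.99 with AAV-hGRB. The AAV-hGRB arrays were the 3 lowest, and the difference from AAV-GFP was -0.27 ± 0.16 (SE, limma adjusted p = 0.576), and 0.48 with normexp. Uqcrfs1, the Rieske iron-sulphur protein, ran from 6.15 to 6.85 with AAV-GFP and from 6.09 to 6.54 with AAV-hGRB, and the groups overlapped. Uqcr11, a small accessory subunit, measured 7.73, 8.14 and 8.45 with AAV-GFP and 7.79, 8.21 and 7.76 with AAV-hGRB, all above the untreated arrays (7.46 to 7.64).

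Complex V makes ATP. Atp5g1 and Atp5g2 code for the same c-ring protein, and Atp5d for a subunit of the central stalk. Atp5g1 measured 6.14, 6.24 and 6.31 with AAV-GFP and 5.68, 6.03 and 5.73 with AAV-hGRB, a difference of -0.42 ± 0.22 (SE, limma adjusted p = 0.537; 0.34 with normexp), while its untreated arrays ran from 5.71 to 6.48. Atp5d and Atp5g2 were likewise lower on every AAV-hGRB array than on every AAV-GFP array, with differences of -0.30 ± 0.16 and -0.29 ± 0.17 (SE), turned to 0.45 and 0.50 by normexp. The catalytic subunits of the F1 head, Atp5a1 and Atp5b, gave -0.22 ± 0.16 and -0.22 ± 0.17 (SE), with overlapping groups, and 0.51 and 0.55 with normexp. For both, normexp was the only 1 of 23 alternatives to turn the sign. The other 2 usable probes of Atp5b gave -0.46 and -0.66. All 16 genes of complex V were below 0 against AAV-GFP, and their median was -0.14. With normexp all 16 were above 0 (median 0.59), and without AAV-GFP replicate 3 only 8 were below 0. Atp5a1 ran only from 7.34 to 7.80 over the 9 arrays, while Atp5e, a small subunit of the central stalk, ran from 7.60 to 9.56.

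**Figure D1:**
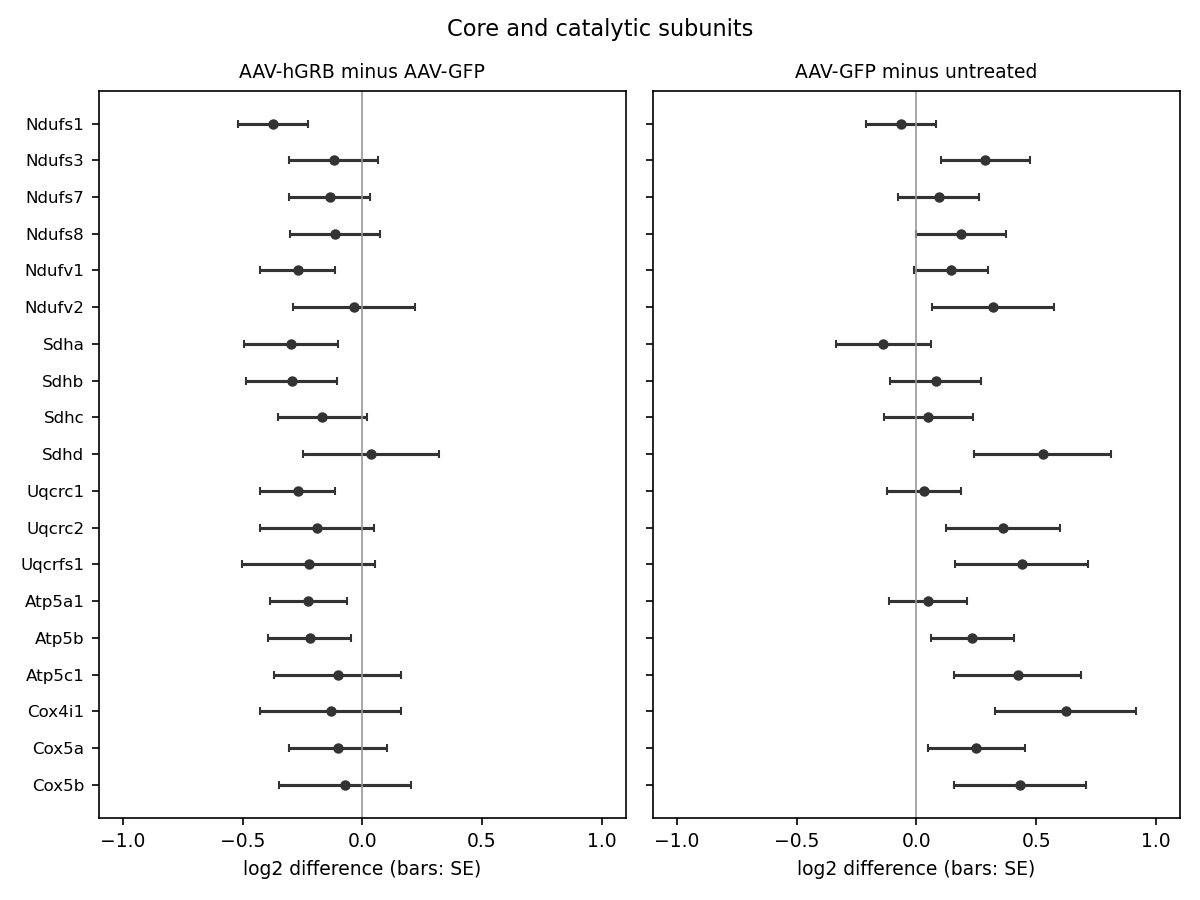
Points are log2 differences and bars standard errors, n = 3 arrays per group, AAV-hGRB minus AAV-GFP at left and AAV-GFP minus untreated at right. Shown are core subunits and Cox4i1, Cox5a and Cox5b of complex IV. None passed the adjusted threshold, and Ndufs1 lies farthest below 0 at left, at -0.37, where normexp turns it to 0.41.

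Complex IV, which reduces oxygen, held the widest range of differences. Of its main nuclear subunits, Cox4i1 gave -0.13 ± 0.30, Cox5a -0.10 ± 0.20 and Cox5b -0.07 ± 0.28 (SE) against AAV-GFP, and the groups of each overlapped. Normexp turned them to 0.66, 0.66 and 0.71. Cox6b2 is known as the testis isoform of a subunit on the outer face of the complex. It measured -1.92, -2.40 and -2.37 untreated, -2.17, -1.94 and -2.01 with AAV-GFP, and -0.96, -1.73 and -0.75 with AAV-hGRB. The AAV-hGRB arrays were the 3 highest. The probe, at chr7:4326339-4326398 in mm7, was well above background on all 9 arrays. The difference was 0.89 ± 0.27 from AAV-GFP (SE, limma adjusted p = 0.221) and 1.08 ± 0.27 from untreated (adjusted p = 0.0628). Against untreated it passed with scan day as a block (adjusted p = 0.0434), without untreated replicate 2 (0.0387) and without AAV-hGRB replicate 2 (0.0305), and with only the genes kept that were well above background on all 9 arrays (0.0461). Over its alternatives the adjusted p ran from 0.0305 to 0.885. With normexp the differences of Cox6b2 were -0.06 from AAV-GFP and 0.16 from untreated. Its ubiquitous counterpart Cox6b1 gave 0.04 ± 0.27 (SE) from AAV-GFP.

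The muscle isoforms of complex IV stood highest on a single array. Cox6a2 measured 3.05 on AAV-GFP replicate 1 and between -3.78 and -2.40 on the other 8 arrays, a 43.9-fold gap to the highest of them. Cox8b measured 1.57 on that array and between -5.39 and -3.40 on the others, a gap of 31.2-fold, and was well above background on 7 arrays. Cox7a1 measured 3.44 there and 1.15 to 2.65 elsewhere, a gap of 1.73-fold.

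On the same array the 6 markers of skeletal muscle that were listed, Ckm, Acta1, Myh4, Tnnt3, Mylpf and Pvalb, were the highest of all 9 arrays, by 1.61 to 6.48 log2 units. The summary of the 3 that could be tested (Acta1, Tnnt3 and Mylpf) was 6.18 above the gene means on AAV-GFP replicate 1 and between -2.40 and 0.23 on the others. Their part in the values of Cox6a2, Cox8b and Cox7a1 was not tested. The general isoforms did not follow, with Cox6a1 at 9.22 and Cox8a at 7.42 on that array, both within the range of the other 8. Without AAV-GFP replicate 1, the difference between AAV-hGRB and AAV-GFP went from -2.33 to -0.46 for Cox8b and from -1.04 to -0.73 for Cox7a1. For Cox6a2 it turned from -1.12 to 1.07. None of the 3 passed with or without that array.

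**Figure D2:**
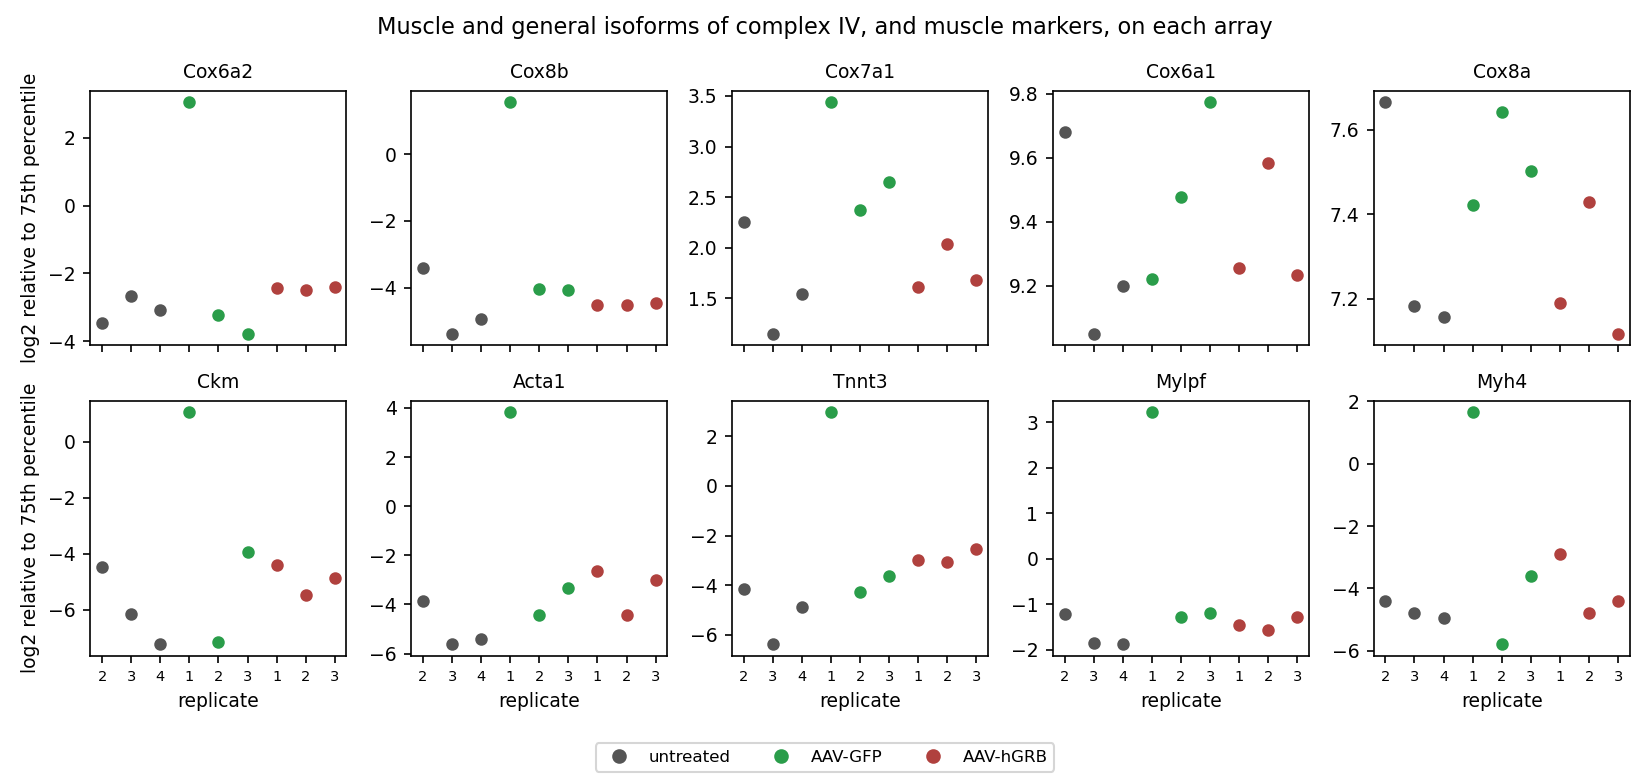
Log2 signal relative to the 75th percentile on each of the 9 arrays (points, coloured by group, replicate number below) for muscle isoforms of complex IV (Cox6a2, Cox8b, Cox7a1), general isoforms (Cox6a1, Cox8a) and 5 muscle markers, each panel with its own axis. AAV-GFP replicate 1 is the highest array for the muscle isoforms and the muscle markers, and lies within the others for Cox6a1 and Cox8a.

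No subunit gene passed between AAV-GFP and untreated livers either. The background was 0% (0 of 16796 genes by limma), while 9.76% of all genes (1640) and 4 of the 79 had an unadjusted p below 0.05, all 4 with AAV-GFP higher (4.58% of all genes). The 79 genes had a median of 0.43 beside 0.04 for all genes, and 74 of 79 lay above 0 (46.4% of all genes lay below). The median stayed above 0 with normexp (0.24), quantile normalization (0.17) and array median scaling (0.44). It was 0.51 on day 1 and 0.21 on day 2, and was 0.27 without AAV-GFP replicate 3, 0.28 without untreated replicate 3 and 0.68 without untreated replicate 2. The 4 genes with the smallest p were Cox7a1 (1.17 ± 0.35), Uqcr11 (0.58 ± 0.22), Atp5o (0.61 ± 0.25), which joins the stator of complex V to its head, and Ndufb6 (0.80 ± 0.34), an accessory subunit of complex I (SE, limma adjusted p = 0.491 for each). The groups did not overlap, AAV-GFP being higher, for Cox7a1 and Uqcr11 (2.53%, beside 5.73% of all genes), and AAV-GFP was lower for none (9.01% of all genes). By complex the medians were 0.42 for complex I, 0.07 for complex II, 0.44 for complex III, 0.53 for complex IV and 0.44 for complex V, and normexp turned that of complex II to -0.16. Sdha, Ndufs1, Ndufa9, Ndufa10 and Dmac2l were the 5 genes below 0.

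AAV-hGRB against untreated also gave 0 passing subunit genes with all 9 arrays in the limma fit, beside 3.24% of all genes (544, of which 418 higher and 126 lower, or 332 and 257 with array median scaling), and 4 of the 79 had an unadjusted p below 0.05 (25.6% of all genes did). Of these, 2 were higher (14.7% of all genes) and 2 lower (10.8%). Both comparisons with AAV-GFP share its arrays, and both with untreated share the untreated arrays, so the 3 comparisons are not independent. The median was 0.31 beside 0.10 for all genes, with 63 of 79 above 0 (42.8% of all genes lay below), and -0.04 with array median scaling, under which the median of all genes went from 0.10 to -0.25. It was 0.53 without untreated replicate 2, 0.17 without untreated replicate 3 and 0.20 without AAV-hGRB replicate 2. The differences of single genes ran from -0.70 to 1.08. Cox7b, Cox7a2 and Ndufs4, all small or accessory subunits, gave 0.86 ± 0.48, 0.79 ± 0.44 and 0.92 ± 0.41 (SE), while Ndufa10, an accessory subunit of complex I, gave -0.70 ± 0.22 (limma adjusted p = 0.111). Ndufa10 measured 3.96, 4.37 and 4.42 untreated, 4.13, 4.02 and 3.44 with AAV-GFP, and 3.55, 3.47 and 3.64 with AAV-hGRB. Its AAV-hGRB arrays lay below all untreated arrays. AAV-hGRB was lower without overlap for 7 genes (8.86%, beside 14.2% of all genes), among them Ndufa9, Ndufa10, Ndufs1, Sdha, Sdhb and Uqcrc1, with normexp turning at least Ndufs1, Sdhb and Uqcrc1 above 0. It was higher for 3 (3.8%, beside 15.1%), which were Cox6a2, Cox6b2 and Uqcr11, with Cox6a2 at -0.33 under normexp.

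The scan days give different pictures of the same comparisons. AAV-hGRB minus AAV-GFP had a median over the 79 genes of 0.15 on day 1 (22 of 79 below 0, beside 41.1% of all genes) and of -0.62 on day 2 (75 of 79 below 0, beside 51%), while all genes had 0.11 and -0.01. AAV-hGRB minus untreated had 0.64 on day 1 (11 of 79 below 0, beside 42.6%) and -0.37 on day 2 (76 of 79 below 0, beside 51.4%). The test of the difference between the days rests on 1 array per group on day 2 and 3 residual degrees of freedom. In it, 0 of the 79 genes passed for AAV-hGRB minus AAV-GFP (0% of all genes), with a lowest limma adjusted p of 0.262. Before adjustment 22 of the 79 had p below 0.05, all lower on day 2, beside 17.8% of all genes (11.6% lower). The sign of this difference was negative for 66 of 79 genes (58.6% of all genes), with a median of -0.78 beside -0.17 for all genes.

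Cox7b, a small subunit of complex IV, shows the pattern. It measured 7.41 on the day 2 array and 5.95 and 5.93 on the day 1 arrays of the untreated group, and 7.98 on day 2 and 6.63 and 7.12 on day 1 with AAV-GFP. With AAV-hGRB it measured 6.85 on day 2 and 7.83 and 7.18 on day 1. The day 2 array was the highest in the untreated and AAV-GFP groups and the lowest in the AAV-hGRB group. The difference between AAV-hGRB and AAV-GFP was 0.63 on day 1 and -1.13 on day 2. Cox7a2 went from 0.57 to -0.98, and Ndufs4, an accessory subunit needed to assemble complex I, from 0.72 to -0.82. The 3 genes with the largest opposite turn were Cox6a2 and Cox8b, whose day 1 values hold AAV-GFP replicate 1, and Ndufa10 (-0.53 on day 1, 0.11 on day 2).

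Over the 79 genes, the day 2 array was above both day 1 arrays for 73 in the untreated group (51.6% of all genes were) and for 60 in the AAV-GFP group (52% of all genes). In the AAV-hGRB group it was above both for 1 gene and below both for 61 (36.4% of all genes). The term for scan day, fitted beside group, passed for 0 of the 79 genes and for 3.16% of all genes (limma). With normexp 57 of the 79 passed. The share of all genes that passed with normexp is not given here, so that count has nothing to be set against.

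**Figure D3:**
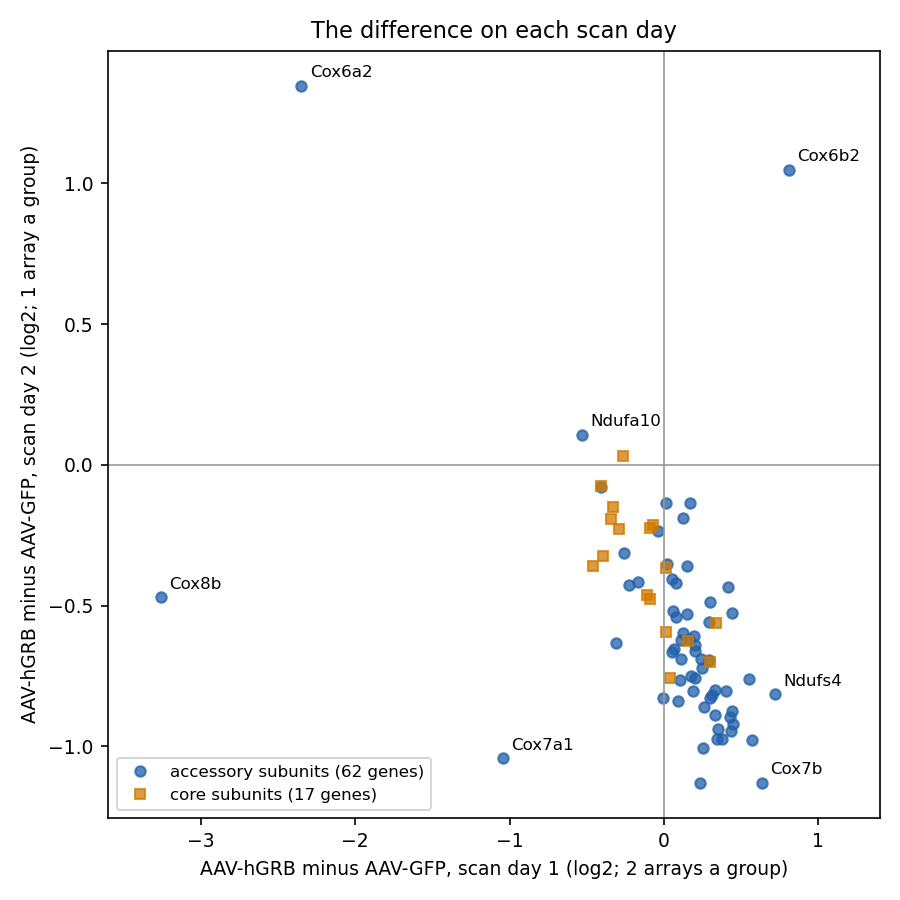
AAV-hGRB minus AAV-GFP in log2 units on scan day 1 (horizontal axis, 2 arrays a group) and day 2 (vertical axis, 1 array a group) for the 79 genes, core subunits as squares and the rest as circles. Most points lie low at the right, with a median of 0.15 on day 1 and -0.62 on day 2, while Cox6b2 is above 0 on both days and Cox7a1 and Cox8b below 0 on both.

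Within day 1 alone, 28 of the 79 genes passed for AAV-hGRB minus untreated (35.4%), 27 higher and 1 lower, beside 28.3% of all genes (4754; 17.7% higher and 10.6% lower). Those furthest from 0 among the named genes were Cox7b (1.56 ± 0.28) and Ndufs4 (1.54 ± 0.22), with limma adjusted p of 0.021 and 0.0179, and Ndufa10 was the one below 0 (-0.84 ± 0.16, adjusted p = 0.0217). This fit has 2 arrays a group, and on day 1 each group has a slide of its own, so that slide and group cannot be told apart. In the same fit 0 of the 79 passed for AAV-hGRB minus AAV-GFP (0.0179% of all genes) and 0 for AAV-GFP minus untreated (0.00595%).

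The array pattern differed between kinds of subunit. The 17 genes for core subunits of complexes I, II, III and V (7 of complex I, 4 of complex II, Uqcrc1, Uqcrc2, Uqcrfs1, Atp5a1, Atp5b and Atp5c1) were set apart from the other 62. These 62, called accessory genes below, include all nuclear genes of complex IV. They also include Emc8, Dmac2l and Cox7a2l, whose products are no subunits. This division was made with the values known, so it has no test. The median range over the 9 arrays was 0.63 for the core genes, 1.19 for the rest and 1.11 for all genes. These ranges rest on 1 probe per gene. The Atp5b probe used was highest on AAV-GFP replicate 3 (8.67), while the other usable probes of Atp5b were lowest there (4.50 and 1.93). How far the division depends on the probe chosen was not tested. Against AAV-GFP the core genes had a median of -0.22, with 16 of 17 below 0 (46.4% of all genes), and the others -0.09, with 49 of 62 below 0. Normexp turned these to 0.53 and 0.66, and quantile normalization gave -0.10 and 0.02. The core genes had -0.09 on day 1 and -0.36 on day 2, and the others 0.19 and -0.66.

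**Figure D4:**
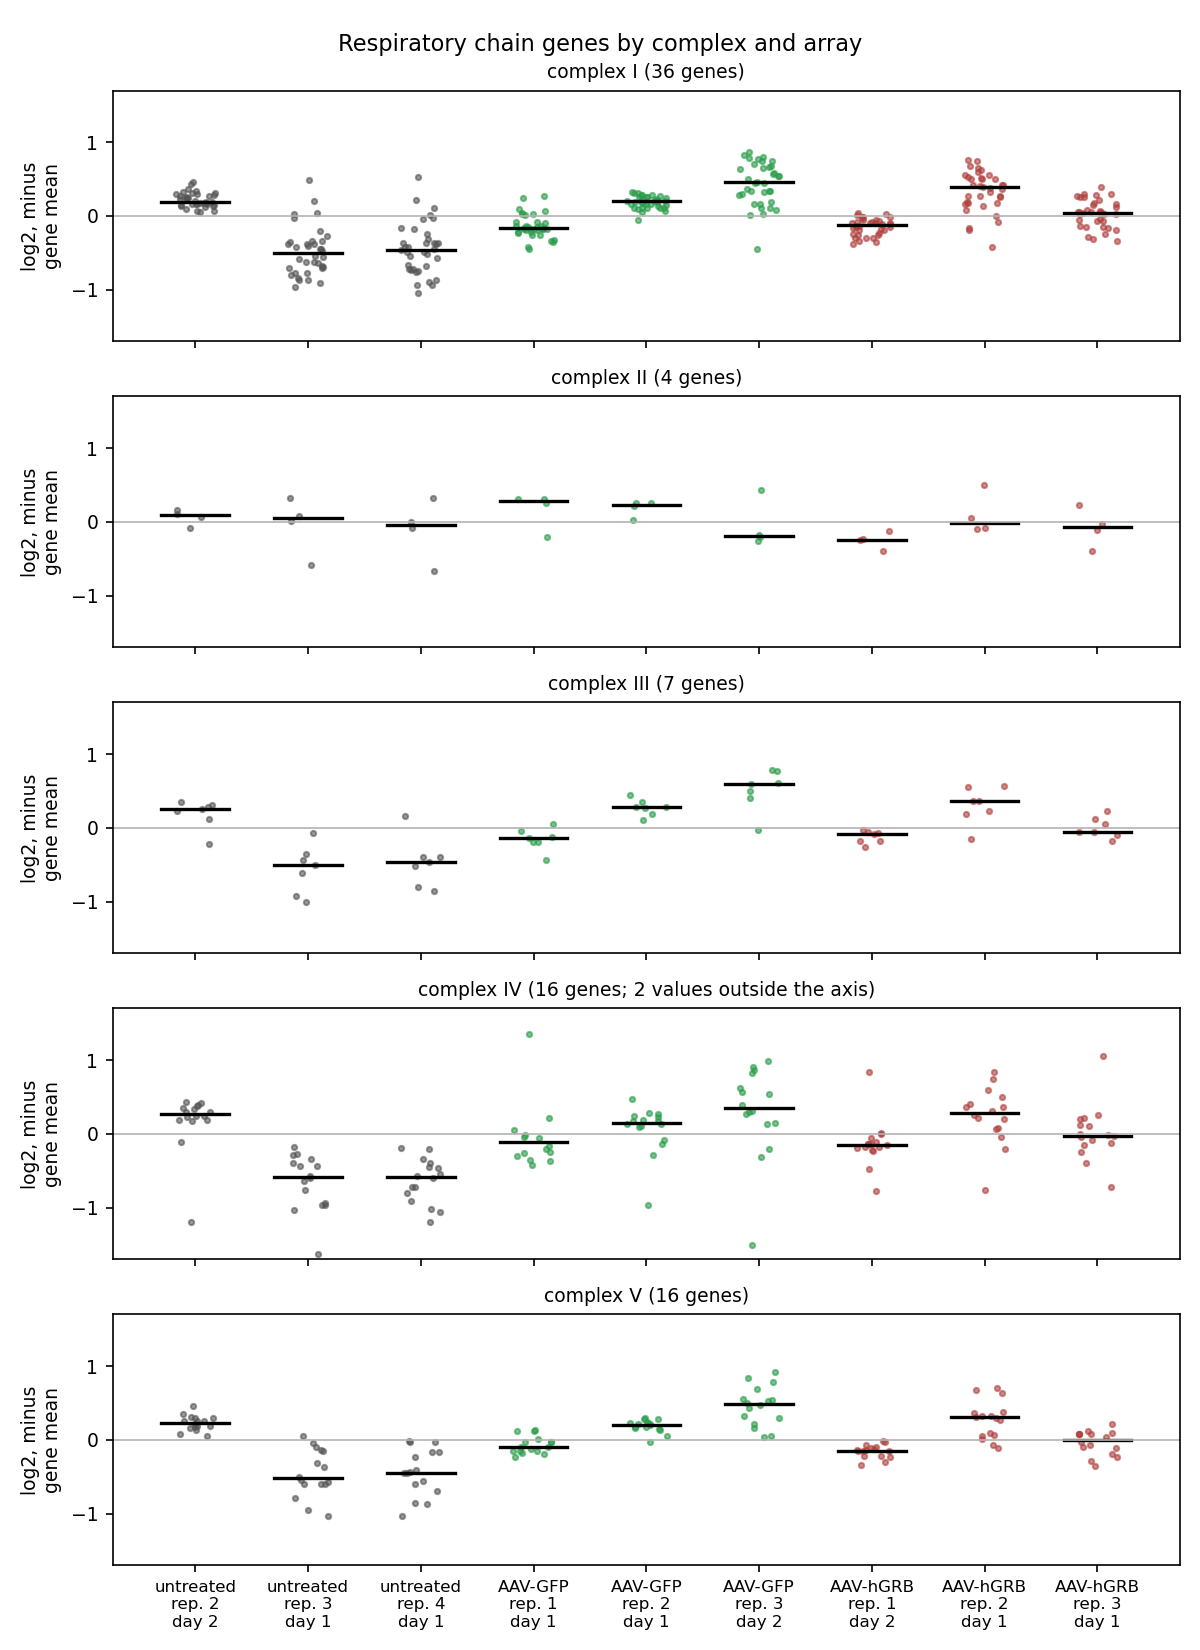
Log2 value of each gene minus its own mean over the 9 arrays (points) by complex, array and scan day, with the median of the complex as a black bar. The bars are lowest on untreated replicates 3 and 4 for complexes I, III, IV and V (-0.44 to -0.58) and highest there on AAV-GFP replicate 3 (0.35 to 0.60), while complex II runs only from -0.24 to 0.28.

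Of the 29 accessory subunits of complex I, 27 had untreated replicates 3 and 4 as their lowest arrays, and 20 of these had AAV-GFP replicate 3 as the highest. Ndufa9 and Ndufa10 were the exceptions to the first. These counts, and those for complexes III and IV below, were not taken over all genes. Ndufb9 measured 9.09, 8.01 and 8.04 untreated, 8.59, 8.89 and 9.58 with AAV-GFP, and 8.69, 9.30 and 8.85 with AAV-hGRB. Ndufb6 measured 6.30, 5.47 and 5.24 untreated, 6.20, 6.29 and 6.92 with AAV-GFP, and 5.94, 6.77 and 6.47 with AAV-hGRB. Both genes were among the 20. The 29 accessory subunits of complex I had a median difference of -0.07 from AAV-GFP, between -0.32 and 0.21, and a median range over the arrays of 1.19, beside 0.54 for the 7 core subunits. Ndufa4, now counted with complex IV, ran with the accessory genes, at 8.40, 7.25 and 7.22 untreated, 7.85, 8.20 and 8.95 with AAV-GFP, and 8.01, 8.71 and 8.21 with AAV-hGRB.

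The same 2 arrays were lowest for all 4 subunit genes of complex III outside the core and for 14 of the 16 tested genes of complex IV, while AAV-GFP replicate 3 was highest for 4 and 9. Uqcrh, the hinge protein of complex III, measured 8.87, 7.69 and 7.76 untreated, 8.47, 8.88 and 9.38 with AAV-GFP, and 8.52, 9.16 and 8.72 with AAV-hGRB. Cox7a2, the general isoform matching Cox7a1, measured 7.39, 6.08 and 6.14 untreated, 6.63, 7.28 and 7.92 with AAV-GFP, and 6.94, 7.79 and 7.26 with AAV-hGRB. In both, untreated replicates 3 and 4 were the lowest arrays and the AAV groups overlapped. Cox7a2l, the supercomplex factor, ran from 3.62 to 4.39, with -0.13 ± 0.23 (SE) between the AAV groups.

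Lists of neighbouring pathways were set beside the subunits. None of their genes passed for AAV-hGRB minus AAV-GFP. Assembly factors of complex I had a median of 0.00 (7 of 14 below 0), and those of complex IV 0.04 (7 of 20 below 0). Those of complex II (4 genes), III (6) and V (5) had medians of 0.13, -0.10 and 0.06. Cox17, which brings copper to complex IV, gave -0.40 ± 0.26, and Lyrm7, which matures the Rieske protein, gave -0.42 ± 0.20 (SE). Of the genes around cytochrome c, 8 of 10 were below 0, with Etfdh, the entry point for electrons of fatty acid oxidation, at -0.43 ± 0.19 and Cyc1, cytochrome c1, at -0.33 ± 0.14 (SE, limma adjusted p = 0.421 and 0.427). Of 8 mitochondrial antioxidant genes the median was -0.06, with Txn2, mitochondrial thioredoxin, at -0.30 ± 0.17 (SE). Among 17 regulators of mitochondrial biogenesis, 0 passed. Ppargc1a, the coactivator of this programme, gave -0.65 ± 0.24 and Esrrg, an oestrogen-related receptor, 0.67 ± 0.24 (SE, limma adjusted p = 0.335 and 0.324).

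The list for the citric acid cycle also took in Dlat, which is not an enzyme of the cycle itself. The 16 tested genes of this list were all below 0 against AAV-GFP, with a median of -0.22 (-0.28 on day 1 and -0.27 on day 2). With normexp 15 of 16 were above 0 (median 0.46). AAV-hGRB was lower without overlap for 5 of the 16, beside 6.3% of all genes. Idh3b, a subunit of isocitrate dehydrogenase, gave -0.46 ± 0.19 and Dlat, of the pyruvate dehydrogenase complex, -0.36 ± 0.15 (SE, limma adjusted p = 0.403 and 0.407). The array medians of this list were -0.24, -0.22 and -0.24 on the AAV-hGRB arrays and -0.05 to 0.15 on the other 6. Against untreated, 15 of 16 were below 0, with a median of -0.35 (0.18 with normexp).

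Several other lists had an array pattern like that of the accessory genes. Among them were the cytosolic ribosomal proteins, the mitochondrial ribosomal proteins, protein import and the assembly factors of complexes II, IV and V. The 62 cytosolic ribosomal protein genes had medians of -0.60 and -0.71 on untreated replicates 3 and 4, 0.74 on AAV-GFP replicate 3 and 0.46 on AAV-hGRB replicate 2. The accessory genes had -0.59, -0.54, 0.54 and 0.37 there. All 16796 genes tested had the same lowest and highest arrays in their median, with -0.09, -0.10, 0.10 and 0.06. The mitochondrial ribosomal proteins had -0.44, -0.44, 0.40 and 0.26, and protein import -0.52, -0.52, 0.37 and 0.38. Assembly factors of complex II had -0.66, -0.65, 0.41 and 0.55, those of complex IV -0.56, -0.52, 0.35 and 0.22, and those of complex V -0.40, -0.48, 0.40 and 0.31. The likeness is across arrays that share slides and scan days, and was not tested. Against AAV-GFP the ribosomal genes had a median of -0.07 (0.32 on day 1, -0.84 on day 2; 0.69 with normexp and 0.06 with quantile normalization).

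**Figure D5:**
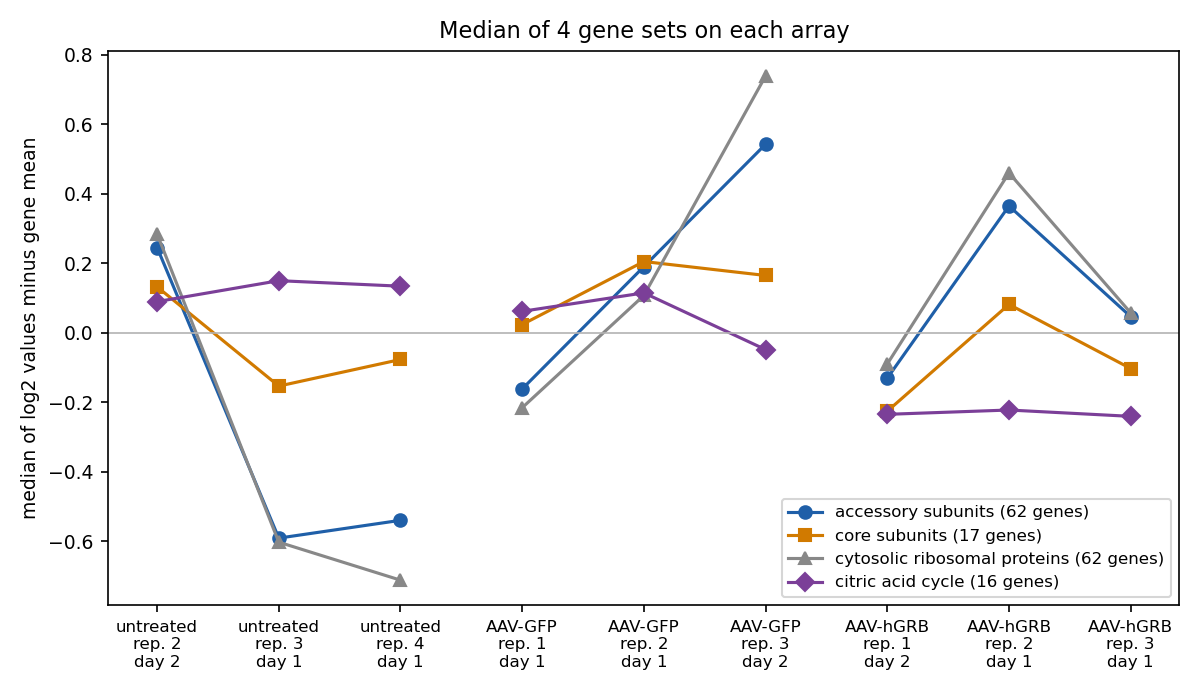
Median log2 value relative to each gene's mean over the 9 arrays, with lines joining arrays of the same group. Shown are 62 accessory genes (circles), 17 core subunits (squares), 62 cytosolic ribosomal proteins (triangles) and the 16 genes of the citric acid cycle list (diamonds). The accessory genes and ribosomal proteins have nearly the same course, from below -0.5 on untreated replicates 3 and 4 to above 0.5 on AAV-GFP replicate 3. The citric acid cycle list is lowest on the 3 AAV-hGRB arrays under the 75th percentile scaling.

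Some markers of T and NK cells rose in the AAV-hGRB group. Of 10 tested markers of T and NK cells, 4 rose against AAV-GFP (limma; 0.839% of all genes did), with a median of 1.66, and Cd8a, a marker of cytotoxic T cells, gave 4.36 ± 0.51 (SE, limma adjusted p = 0.00849). The array medians of this list, relative to the gene means, ran from -1.25 to -0.34 in the untreated group, from -1.06 to -0.24 with AAV-GFP, and from 0.81 to 1.93 with AAV-hGRB. Markers of Kupffer cells and macrophages had a median of 0.55 and those of neutrophils 1.19, with 0 of 9 and 0 of 5 passing (limma; 2 of each had an unadjusted p below 0.05). Of 8 hepatocyte markers, 0 passed and all 8 were below 0, with a median of -0.28 (0.46 with normexp). In whole tissue, fewer cells of a type and less RNA per cell cannot be told apart, and the part of other cell types in the values of the subunit genes was not tested.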

How the data were processed

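Liver RNA was hybridised to 9 single-colour arrays, 3 per group, with groups and replicate numbers from the sample labels. Per the file headers, each file held the processed spot intensity on a linear scale, with background removed within the array and no scaling between arrays. The submitters' processing notes name Agilent Feature Extraction 9.5. The deposited series table held the same intensity values (largest difference 0).

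Control spots and outlier spots were left out, spots of a probe were averaged, and values were log2 minus the 75th percentile of the array. Probes had to be well above background throughout at least 1 group, a filter passed by 24273 of 41174 probes and 105 of the 112 member probes. Tests used limma 3.58.1 (R 4.3.3; two-sided, 9 arrays, 6 residual degrees of freedom) with Benjamini-Hochberg adjustment over all genes. The code was tested on simulated data. The number of arrays, 3 per group, limits the precision.

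Probe names were updated through RefSeq names of GRCm38.p6 (98 of the 112 probes by accession), and probe positions are those of the files, on build mm7. The first listed promoter window of a gene was used.

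The members and lists were chosen with earlier results of these data known. Named genes were those that passed and the 3 with the smallest p of each complex for AAV-hGRB minus AAV-GFP. Core subunits, Cox4i1, Cox5a, Cox5b and tissue isoforms were also named. So were the 3 lowest and 3 highest in the test between days, and the 2 with the smallest p of each list. Other genes were named after their values were seen. Alternatives were other background corrections, scalings, filters and probe choices, scan day, slide and replicate number as blocks, day 1 alone, the 2 groups alone, and each array left out. One gene of the list is counted with the others but not reported by itself here.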

Additional observations from a re-analysis of the deposited data

How the results depend on the processing

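For AAV-hGRB minus AAV-GFP, 0 members passed with the settings reported above and in each alternative. Normexp background correction gave medians of 0.65 for all members and 0.68, 0.48, 0.62, 0.58 and 0.59 for complexes I to V. With normexp after bright local backgrounds were replaced, the median was -0.09. Array median scaling gave -0.47 for all members and -0.44, -0.59, -0.55, -0.49 and -0.51 for complexes I to V, as the median of all genes went from 0.03 to -0.33. All genes called numbered 13 with normexp, 29 with no filter, 254 with a scan day block, 3 on day 1 alone, 74 with slide as a random block, 75 with the 2 groups alone and 34 to 166 with an array left out, with 34 without AAV-GFP replicate 1, 47 without AAV-hGRB replicate 1 or 3, 97 and 98 without untreated replicates 3 and 4, and 101 without AAV-GFP replicate 2.

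For AAV-GFP minus untreated, 0 members passed in any setting. All genes called were 1 with quantile normalization, with a scan day block and on day 1 alone, 4 with array median scaling, and 0 to 1 with an array left out. The median of complex II was -0.16 with normexp and 0.26 on day 1 alone.

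For AAV-hGRB minus untreated, members called were 1 with a filter on all 9 arrays and with a scan day block, 28 on day 1 alone, and 0 to 3 with an array left out. The 3, without untreated replicate 2, were Cox6b2, Emc8 and Ndufb5. With all 9 arrays the Emc8 probe used gave 0.45 and its other usable probe -0.74. All genes called were 45 with normexp, 872 with bright local backgrounds replaced, 84 with no filter, 1215 with a scan day block, 4754 on day 1 alone, 59 with slide as a random block, 342 with the 2 groups alone and 94 to 1953 with an array left out, with 94 without untreated replicate 4, 109 without untreated replicate 3, 1953 without untreated replicate 2, 243 without AAV-GFP replicate 2, and 319, 275 and 101 without AAV-hGRB replicates 1, 2 and 3. Normexp gave medians of 0.85 for all members and 0.90, 0.32, 0.96, 0.74 and 0.86 for complexes I to V. Array median scaling gave -0.043 for all and -0.055, -0.52, 0.034 and -0.046 for complexes I, II, IV and V, and day 1 alone 0.64 for all and 0.63 and 0.65 for complexes I and V. For the scan day term, 57 members passed with normexp and 1 with no filter, with no share of all genes to set beside these counts. Except where fewer arrays or genes entered by construction, the cause was not tested.

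With replicate number as a block, a paired fit, all genes called were 2 for AAV-hGRB minus AAV-GFP and 1 for AAV-hGRB minus untreated, with 0 members. Whether the numbers pair the samples is not known. Deviations of same-numbered AAV-GFP and AAV-hGRB arrays correlated at 0.01, 0.24 and 0.0065. Only the pair with 0.24, the highest between these groups, shared a scan day, so the values cannot decide it. Signal over background limits Cox4i2 and Cox8c, and Cox8b on 2 arrays.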
